A study of Mus musculus with 8 samples.

Results

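The 10 genes described here encode the paired isoforms of cytochrome c oxidase, complex IV of the mitochondrial respiratory chain, together with 4 relatives of these subunits. They are Cox7a1, Cox8b and Cox6a2, the forms of heart and skeletal muscle, Cox7a2, Cox8a and Cox6a1, their ubiquitous counterparts, and Cox7a2l, Cox4i1, Cox4i2 and Ndufa4. They make up 10 of the 55471 gene rows, and all 10 passed the filter on low counts. The set was chosen from earlier values of these same libraries, in which the muscle and ubiquitous forms differed between genotypes, so the differences between genotypes are given as a description, with no p-value. Where a call from the fit over all genes is named for one of the 10, it describes the gene and is not independent evidence.

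RNA was sequenced from pieces of heart of 4 wild-type (WT) mice and 4 TAZG197V mice. All were 14 weeks old, an age given in a legend and not in the labels. TAZG197V mice carry a knock-in point mutation of Taz, the X-linked gene of Tafazzin, which remodels the mitochondrial lipid cardiolipin and is mutated in Barth syndrome. The mutation was made with CRISPR/Cas9 in C57BL/6N zygotes, and founders were crossed to C57BL6/J. The study's results state that hemizygous males were used, whereas its methods and the protocol in the labels speak of homozygous offspring. WT mice carried no edit, and neither genotype was treated. A small piece of each heart was taken, so the share of each cell type can differ between libraries.

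Complex IV passes electrons from cytochrome c to oxygen and pumps protons across the inner membrane. Its catalytic core is made by the mitochondrial genome, and small nuclear subunits surround that core. Subunits 6A, 7A and 8 each exist in a muscle and a ubiquitous form. In rodent heart the ubiquitous forms prevail before birth, and the muscle forms come to dominate as the heart matures. Cox8b is a working gene in mice but not in humans.

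The paired genes are separate loci and not splice forms. On mouse build mm10, Cox7a1 (ENSMUSG00000074218) lies on chromosome 7 from 30184144 to 30186078, plus strand, and Cox7a2 (ENSMUSG00000032330) on chromosome 9 from 79755361 to 79759878, minus strand. Cox8b (ENSMUSG00000025488) lies on chromosome 7 from 140898945 to 140900446 and Cox8a (ENSMUSG00000035885) on chromosome 19 from 7215153 to 7217616, both on the minus strand. Cox6a2 (ENSMUSG00000030785) lies on chromosome 7 from 128205435 to 128206387 and Cox6a1 (ENSMUSG00000041697) on chromosome 5 from 115345642 to 115348981, both on the minus strand. All 3 muscle genes are thus on chromosome 7, whereas the 3 ubiquitous genes are on 3 different chromosomes. When the annotated coding sequences were translated and aligned, Cox7a1 and Cox7a2 shared 57.5% of 80 aligned residues. Cox8b and Cox8a shared 42.6% of 68, and Cox6a2 and Cox6a1 shared 64.5% of 93.

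The promoters are shown because the forms of subunits 7A and 8 moved in opposite directions, and the letters let the control regions be compared. RefSeq promoter windows of build GRCm38.p6, from 250 bases before to 50 bases after the transcription start, matched 7 of the 10 genes by symbol, all but Cox6a2, Cox4i1 and Cox4i2. Windows of 2 muscle and 3 ubiquitous genes are printed 5′ to 3′ on the gene's own strand, with motif matches in capitals. They lie at chr7:30183921-30184220 (Cox7a1, plus strand), chr7:140900397-140900696 (Cox8b, minus), chr9:79759804-79760103 (Cox7a2, minus), chr19:7217567-7217866 (Cox8a, minus) and chr5:115348909-115349208 (Cox6a1, minus).
Cox7a1: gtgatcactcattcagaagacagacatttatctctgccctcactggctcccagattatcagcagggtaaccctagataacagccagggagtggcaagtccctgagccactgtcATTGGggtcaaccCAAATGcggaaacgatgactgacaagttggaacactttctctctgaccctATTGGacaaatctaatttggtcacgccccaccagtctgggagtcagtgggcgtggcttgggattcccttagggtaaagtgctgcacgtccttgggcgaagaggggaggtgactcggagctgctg
Cox8b: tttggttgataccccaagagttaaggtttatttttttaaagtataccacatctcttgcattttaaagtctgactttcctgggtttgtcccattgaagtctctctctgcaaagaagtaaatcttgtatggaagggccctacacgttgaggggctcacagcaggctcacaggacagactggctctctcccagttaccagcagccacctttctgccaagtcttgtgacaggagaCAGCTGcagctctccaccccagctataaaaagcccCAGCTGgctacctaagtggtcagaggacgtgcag
Cox7a2: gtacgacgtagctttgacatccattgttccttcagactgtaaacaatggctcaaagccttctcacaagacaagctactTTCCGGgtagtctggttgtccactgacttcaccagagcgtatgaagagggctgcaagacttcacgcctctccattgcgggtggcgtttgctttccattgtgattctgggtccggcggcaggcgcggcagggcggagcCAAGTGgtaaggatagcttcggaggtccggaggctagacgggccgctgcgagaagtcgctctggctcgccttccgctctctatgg
Cox8a: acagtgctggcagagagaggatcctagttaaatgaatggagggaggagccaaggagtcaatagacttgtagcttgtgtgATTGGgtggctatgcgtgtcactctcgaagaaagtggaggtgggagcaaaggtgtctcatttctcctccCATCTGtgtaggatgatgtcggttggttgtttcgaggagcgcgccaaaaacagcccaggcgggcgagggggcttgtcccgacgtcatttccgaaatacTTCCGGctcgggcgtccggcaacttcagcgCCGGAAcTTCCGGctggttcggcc
Cox6a1: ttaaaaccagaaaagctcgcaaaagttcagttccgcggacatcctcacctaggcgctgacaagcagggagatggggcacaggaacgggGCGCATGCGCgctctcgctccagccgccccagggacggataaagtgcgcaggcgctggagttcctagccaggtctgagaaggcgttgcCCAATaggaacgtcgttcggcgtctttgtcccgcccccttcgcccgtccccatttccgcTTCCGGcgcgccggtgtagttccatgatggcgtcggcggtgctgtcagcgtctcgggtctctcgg

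Capitals mark matches on either strand to the E-box (CANNTG), the ERR site (AAGGTCA), the CCAAT box (CCAAT), the NRF1 core (GCGCATG), the YY1 core (AAGATGG), the ETS core (CCGGAA) and the MEF2 site, which was searched by its usual degenerate pattern. The ETS core, the letters bound by GABP and its relatives, was present in all 3 ubiquitous windows and in neither muscle window. It occurred 1 time in Cox7a2, 1 time in Cox6a1 and 3 times in Cox8a, and 14.9% of all 32851 windows held it. The windows of Cox7a2l and Ndufa4, which are not printed, held none. The NRF1 core was found only in Cox6a1 among the 7 windows, as 2 overlapping matches on opposite strands, against 3.91% of all windows. E-boxes are the letters bound by muscle basic helix-loop-helix factors among others. They numbered 2 in Cox8b, both reading CAGCTG, and 1 each in Cox7a1, Cox7a2, Cox8a and the unprinted window of Cox7a2l. They are common letters, present in 72.3% of all windows. The CCAAT box had 2 matches in Cox7a1, 1 in Cox8a and 1 in Cox6a1 (37.4% of all windows). The ERR site, the YY1 core and the MEF2 site had no match in any of the 7 windows (4.72%, 6.34% and 3.19% of all windows). CpG dinucleotides numbered 7 in Cox7a1 and 2 in Cox8b, and 20 in Cox7a2, 19 in Cox8a and 32 in Cox6a1. The median of all windows was 7. A match here is a run of letters, and no binding was measured.

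Totals over genes were 23055689 to 36301031 counts per library, and the mitochondrial genome took 21.6% to 24.6% of them. Haemoglobin transcripts took 5.00% of counts in WT 4 and at most 0.0960% elsewhere. Brain marker genes summed to 90.9 CPM (counts relative to library size, scaled by TMM for library composition) in WT 4 and 210.0 in TAZG197V 4, against at most 9.81 elsewhere, and atrial markers to 919 in WT 2 and 75.1 in WT 1, against at most 5.54 elsewhere. Taz itself was transcribed in all libraries with 60.9 ± 2.36 CPM in WT hearts and 47.3 ± 2.60 CPM in TAZG197V hearts (mean ± SD, 4 each). A count per gene does not show the edited base, so this level does not check the genotype.

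To compare genotypes, all genes were fitted together with edgeR, and a gene was called when its Benjamini-Hochberg adjusted p was under 0.05, the genotype with the higher level exceeded the other by more than 15% and its mean scaled count was at least 50. Of 15084 genes tested, 33.5% were called, 18.5% higher and 15.1% lower in TAZG197V. In 33.2% of genes all 4 libraries of one genotype lay beyond all 4 of the other. Among the 10 isoform genes, 6 were called, 4 of them higher and 2 lower, and in 7 the libraries of the 2 genotypes did not overlap. Because the set was chosen from this contrast, nothing is read from these counts. The 2 genotypes were split evenly over sequencing lanes 7 and 8.

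Cox7a1 and Cox8b, the muscle forms of subunits 7A and 8, were lower in TAZG197V. Cox7a1 measured 722, 575, 752 and 587 CPM in WT 1 to WT 4, and 368, 422, 403 and 347 CPM in TAZG197V 1 to TAZG197V 4. Cox8b measured 438, 347, 441 and 341 CPM in WT and 215, 259.6, 261 and 200.5 CPM in TAZG197V, in the same order. For both genes every TAZG197V library was below every WT library, and WT 2 and WT 4 were the lowest of the WT libraries. The fitted log2 fold change was -0.79 ± 0.08 (SE) for Cox7a1 and -0.76 ± 0.08 for Cox8b. Without WT 2 and without both number 4 libraries in turn, it was -0.85 and -0.76 for Cox7a1, and -0.81 and -0.72 for Cox8b. Within lane 7 the log2 difference of means was -0.71 for Cox7a1 and -0.72 for Cox8b, and within lane 8 it was -0.83 and -0.76.

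Cox6a2, the remaining muscle form, did not follow them. It measured 1269, 1145, 1185 and 1098 CPM in WT and 1308, 1428, 1322 and 1372 CPM in TAZG197V. All TAZG197V libraries were above all WT libraries, and the highest WT and the lowest TAZG197V library lay close together. The log2 fold change was 0.21 ± 0.08, which was not called. It was called in 4 of 17 alternative fits, among them that without surrogate variables, at 0.21 ± 0.06. The muscle forms thus did not move as one group, with 2 lower and 1 slightly higher.

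**Figure D1:**
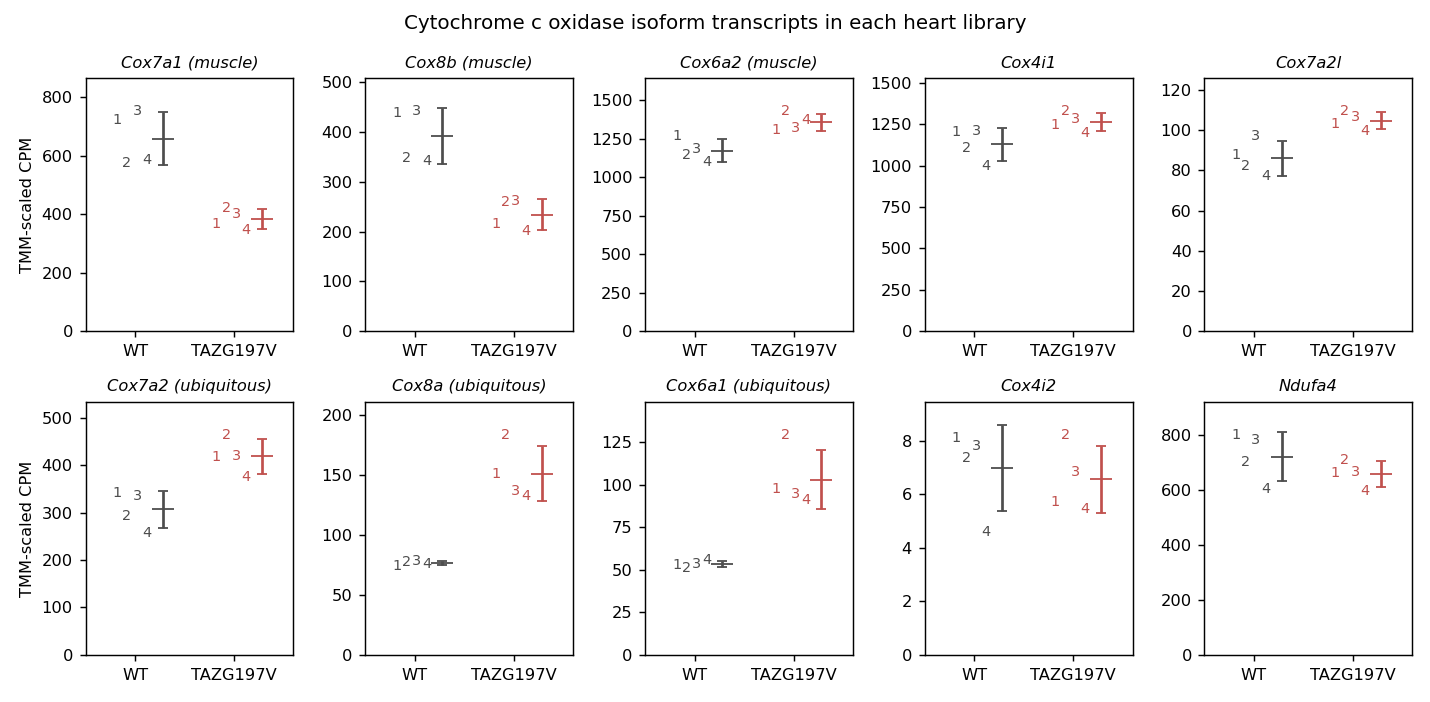
Scaled CPM (y axis, from 0) of the 10 genes in each library (digits give the library number, bars the mean and SD of 4 libraries), WT in grey and TAZG197V in red. Cox7a1 and Cox8b sit lower in all 4 TAZG197V libraries, whereas Cox7a2, Cox8a, Cox6a1, Cox7a2l and Cox6a2 sit higher, and Cox4i1, Cox4i2 and Ndufa4 overlap.

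All 3 ubiquitous forms were higher in TAZG197V. Cox8a measured 74.2, 77.3, 77.7 and 75.6 CPM in WT and 151, 183, 137 and 133 CPM in TAZG197V. Cox6a1 measured 53.0, 51.1, 53.7 and 56.0 CPM in WT and 97.5, 129, 94.9 and 90.9 CPM in TAZG197V. Both were nearly even across WT hearts, with coefficients of variation of 2.16% and 3.83%, and more spread in TAZG197V, where they reached 15.1% and 17.1%. TAZG197V 2 was the highest library for both. Cox8a had a log2 fold change of 0.98 ± 0.09 and Cox6a1 one of 0.93 ± 0.11, and the ratio of the mean CPM, TAZG197V over WT, was 1.98 and 1.93.

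Cox7a2 measured 342, 293, 335 and 257 CPM in WT and 417, 463, 420.0 and 374 CPM in TAZG197V. Its libraries did not overlap between genotypes either, but its log2 fold change of 0.45 ± 0.08 was smaller than those of Cox8a and Cox6a1. Within lanes 7 and 8 the log2 differences were 0.47 and 0.43 for Cox7a2, 1.13 and 0.81 for Cox8a, and 1.11 and 0.76 for Cox6a1. Without both number 4 libraries the log2 fold changes were 0.43 for Cox7a2, 1.04 for Cox8a and 1.03 for Cox6a1. Without TAZG197V 2 they were 0.42 for Cox7a2, 0.89 for Cox8a and 0.80 for Cox6a1.

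Setting the muscle form against the ubiquitous form within a library removes library scaling. Cox7a1 counts over Cox7a2 counts were 2.11, 1.96, 2.25 and 2.28 in WT and 0.883, 0.911, 0.959 and 0.927 in TAZG197V. In WT the muscle form gave more counts in every heart, and in TAZG197V the ubiquitous form did. On the log2 scale the ratio differed by -1.22 ± 0.06 (SE, 4 libraries a genotype), a ratio 2.34-fold lower. Cox8b over Cox8a was 5.91, 4.48, 5.67 and 4.51 in WT and 1.43, 1.42, 1.91 and 1.51 in TAZG197V, a log2 difference of -1.71 ± 0.15 and the widest of the 3 pairs. Cox6a2 over Cox6a1 was 24.0, 22.4, 22.1 and 19.6 in WT and 13.4, 11.1, 13.9 and 15.1 in TAZG197V, a log2 difference of -0.72 ± 0.11. The Cox6a2 ratio differed by way of Cox6a1, since Cox6a2 was not lower. In all 3 pairs every TAZG197V ratio was below every WT ratio. Within lanes 7 and 8 the log2 differences were -1.18 and -1.26 for the 7A pair, -1.85 and -1.57 for the 8 pair, and -0.93 and -0.52 for the 6A pair.

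**Figure D2:**
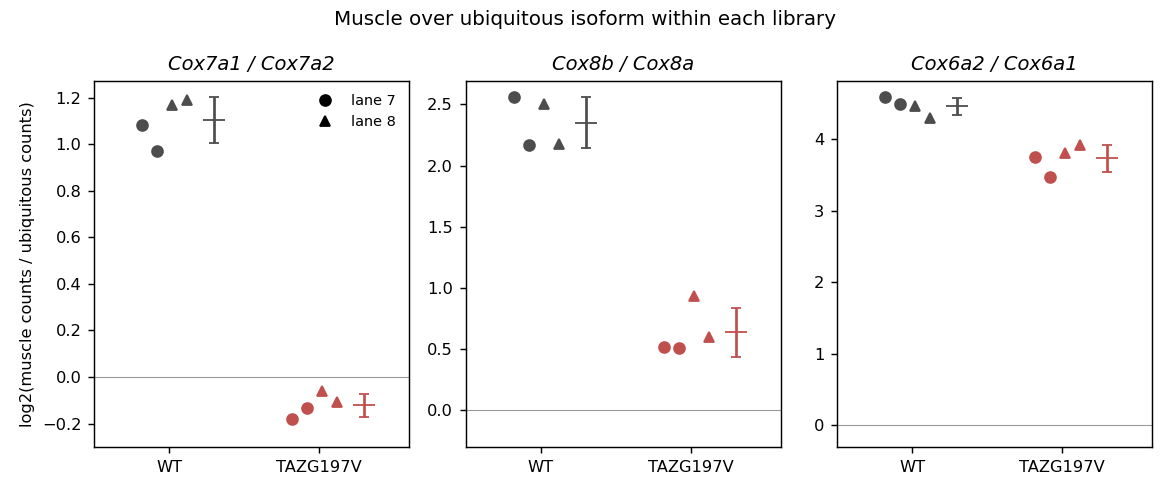
Log2 ratio of muscle to ubiquitous isoform counts (y axis, a separate scale in each panel) in each library, with circles for lane 7, triangles for lane 8 and bars for the mean and SD of 4 libraries. The TAZG197V ratios lie below the WT ratios in all 3 panels, and Cox7a1 over Cox7a2 crosses the line at 0 where both forms give equal counts.

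Counts also depend on gene length, so shares were taken per kilobase of annotated exons. Cox7a1 made up 79.1% ± 1.1 of the 7A pair in WT and 61.9% ± 0.813 in TAZG197V hearts (mean ± SD, n = 4). Cox8b made up 89.7% ± 1.3 of the 8 pair in WT and 72.7% ± 2.68 in TAZG197V. Cox6a2 made up 95.8% ± 0.346 of the 6A pair in WT and 93.2% ± 0.868 in TAZG197V. Per length, therefore, the muscle form was still the more abundant one of each pair in TAZG197V hearts. With the longest transcript as the length, the Cox7a1 share was 74.5% in WT and 55.5% in TAZG197V.

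The summed level of a pair differed between genotypes as well. The sum of Cox7a1 and Cox7a2 was 1557 ± 208 CPM per kilobase in WT and 1163 ± 100.1 in TAZG197V. For Cox8b and Cox8a the sum was 1211 ± 153 in WT and 894 ± 109 in TAZG197V. For Cox6a2 and Cox6a1 it was 1803 ± 106 in WT and 2143 ± 101 in TAZG197V. None of the 3 sums overlapped between genotypes, and the sums moved down for subunits 7A and 8 and up for subunit 6A. These are transcript levels, and protein was not measured in these libraries. Ventricular cardiomyocyte markers summed to 59463 to 68273 CPM in WT and 50666 to 54807 in TAZG197V, and the pair sums were not set against them.

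In WT hearts the 10 genes spanned a wide range per kilobase of exons. Cox6a2 was highest at 1727 ± 107 CPM per kilobase, followed by Cox7a1 at 1232 ± 170 and Cox8b at 1088 ± 154, whose libraries overlapped with each other. Cox4i1, the common form of subunit 4, stood at 728 ± 64.2 and Ndufa4 at 521 ± 64.9. The ubiquitous forms came after them, with Cox7a2 at 325 ± 41.6, Cox8a at 123 ± 2.66 and Cox6a1 at 76.2 ± 2.92. Cox7a2l stood at 58.2 ± 5.85 and Cox4i2, the scarcest, at 8.84 ± 2.04. Apart from Cox7a1 and Cox8b, no neighbours in this order overlapped in WT. In TAZG197V, Cox4i1 at 815 ± 36 ranked above Cox7a1 at 720 ± 63.3 and Cox8b at 650.1 ± 85.9, with overlap among neighbours, and Cox7a2 at 443 ± 38.7 overlapped with Ndufa4 at 476 ± 34.1. With the longest transcript as the length, Cox4i1 stood at 1475 CPM per kilobase in WT and ranked above Cox7a1, so its place depends on the length used. On that length more neighbours overlapped in WT, namely Cox4i1 with Cox7a1, Ndufa4 with Cox7a2 and Cox6a1 with Cox7a2l.

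**Figure D3:**
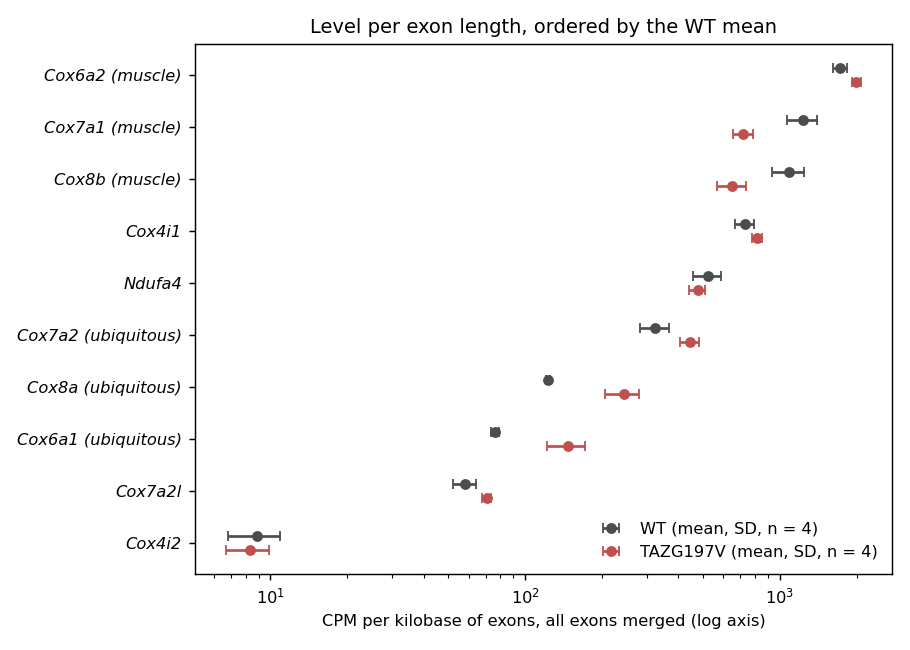
Level of each gene per kilobase of merged exons (x axis, log scale) in WT (grey) and TAZG197V (red), as mean and SD of 4 libraries, ordered by the WT mean. The 3 muscle forms lead in WT, from 1727 for Cox6a2 to 1088 for Cox8b, and the 3 ubiquitous forms lie between 325 and 76.2.

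The remaining 4 genes have no muscle and ubiquitous form to set against each other here. Cox7a2l encodes a relative of subunit 7A that ties complex IV to complex III in respiratory supercomplexes, and C57BL/6 mice are known for a shortened form of it. It measured 87.7, 82.2, 97.2 and 77.0 CPM in WT and 103, 109, 107 and 99.7 CPM in TAZG197V, without overlap, and was called higher with a log2 fold change of 0.28 ± 0.07. Of the 50-base windows of its exons, 13.8% also occur in the pseudogene Gm6969. That copy had 211 counts over all libraries against 22717 for Cox7a2l, so a few reads may have been split. Cox6a1 likewise shares 9.16% of its windows with a pseudogene (40 counts against 18955). Cox6a2 shares 3.33% with Itgad (77 counts against 301563). The translated proteins of Cox7a2l and Cox7a2 shared 47.5% of 80 aligned residues.

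Cox4i1 measured 1205, 1104, 1208 and 998 CPM in WT and 1244, 1327, 1284 and 1196 CPM in TAZG197V. TAZG197V 4 was below 2 of the WT libraries, and the log2 fold change of 0.17 ± 0.07 was not called. Its exons overlap those of the neighbouring gene Emc8, and the strand setting of the counting is not given in the sources used here, so its level is uncertain by an unknown amount. Ndufa4, once listed with complex I and now placed in complex IV, measured 798, 699.9, 779.6 and 601 CPM in WT and 661, 709, 665 and 595 CPM in TAZG197V. The genotypes overlapped, and its log2 fold change was -0.12 ± 0.08, or -0.19 without WT 4.

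Cox4i2, the form of subunit 4 linked to low oxygen and known from lung and pericytes, gave only 103 to 304 counts per library. It measured 8.08, 7.36, 7.81 and 4.60 CPM in WT and 5.70, 8.20, 6.84 and 5.46 CPM in TAZG197V, and the genotypes overlapped widely. Its log2 fold change was -0.04 ± 0.15, the least certain of the 10. Pericyte markers summed to 1163 to 1384 CPM in WT and 967 to 1192 in TAZG197V. Of these 7 markers 3 were called, all lower, while 33.5% of all genes were called and 15.1% were called lower. Cox4i2 counts were 0.00611 ± 0.00101 of Cox4i1 counts in WT and 0.00517 ± 0.000764 in TAZG197V.

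**Figure D4:**
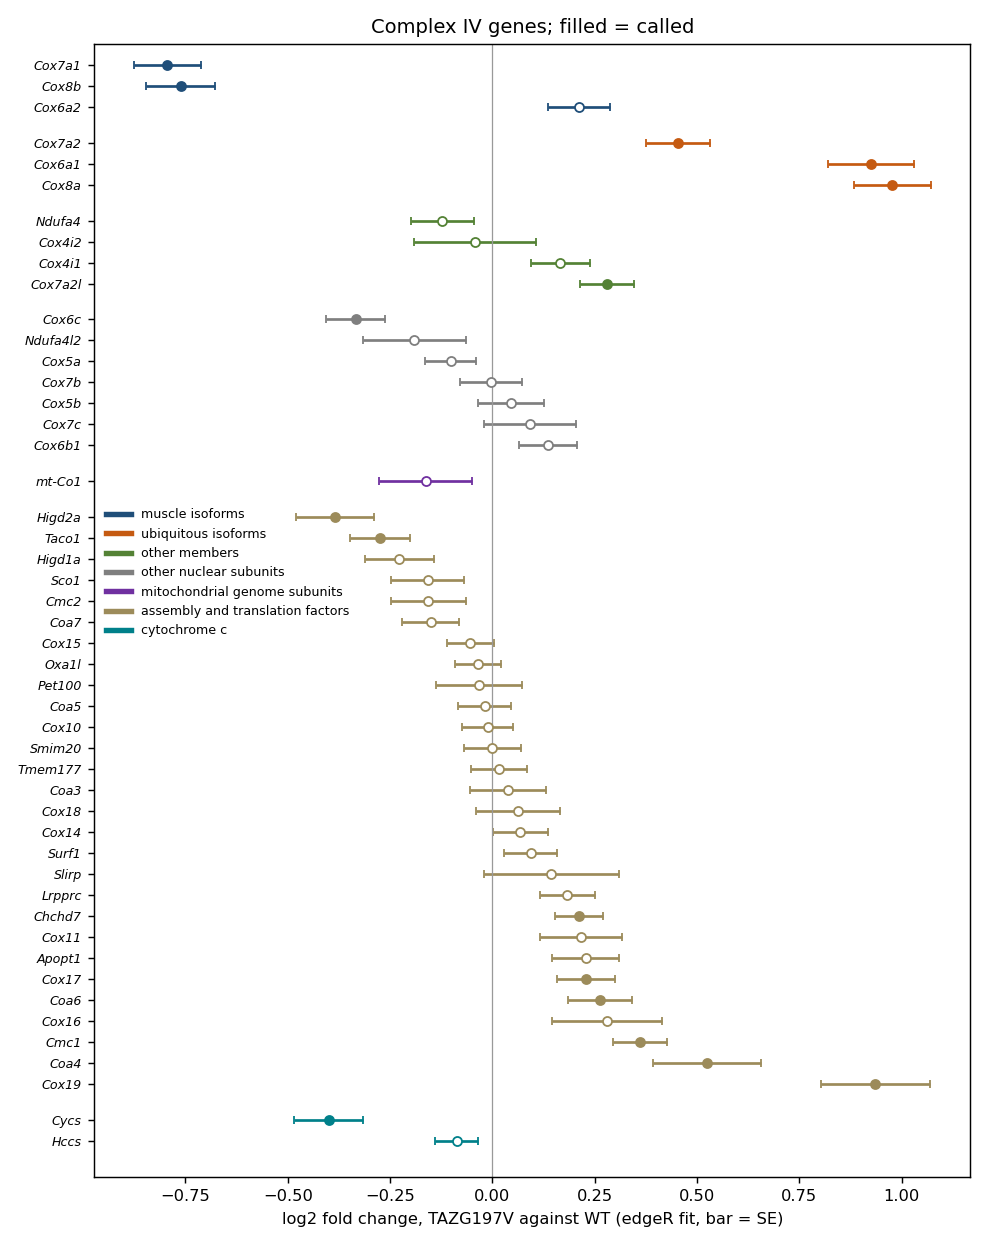
Fitted log2 fold change of TAZG197V against WT (x axis, bars give the SE) for the 10 isoform genes and for the other complex IV genes whose mean scaled count was at least 50, coloured by list. Filled points were called. Cox7a1, Cox8b, Cox8a and Cox6a1, part of a set chosen from this contrast, lie far from 0 beside most other subunits. Cox6b2, at -2.99, is left out by the cut on counts.

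The rest of complex IV gives the surroundings of these genes. Of 10 further nuclear subunit genes, 8 were tested and 1 was called (12.5%, against 33.5% of all genes), with a median log2 fold change of -0.05 against -0.01 over all genes. The one called was Cox6c, lower at -0.33 ± 0.07 (edgeR, Benjamini-Hochberg adjusted p = 0.0078). Without WT 4 or without TAZG197V 4 there were 2 calls, with Ndufa4l2 called lower as well. Cox6b2, the testis form of subunit 6B, had the largest log2 fold change of this list, -2.99 ± 0.30, but its mean scaled count was 35.2 and it was therefore not called. Cox5a, Cox5b, Cox6b1, Cox7b and Cox7c, which like the called Cox6c have no muscle form in this set, had log2 fold changes between -0.10 and 0.14. The mitochondrially encoded core subunit mt-Co1 was not called either, at -0.16 ± 0.11 (edgeR adjusted p = 0.29), while mt-Co2 and mt-Co3 were listed at 0 or 1 count in every library and could not be compared.

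Among 31 assembly and translation factors, 29 were tested, 6 were called higher and 2 lower, and the median log2 fold change was 0.06. That share of 27.6% was below the 33.5% called over all genes, so the list does not stand out by its number of calls. Those with the largest changes were Cox19 at 0.94 ± 0.13, Coa4 at 0.52 ± 0.13, Higd2a at -0.39 ± 0.09 and Cmc1 at 0.36 ± 0.07 (edgeR adjusted p = 0.001, 0.015, 0.014 and 0.0038). Cox19 and Cmc1 belong to the small twin-cysteine proteins that take part in copper delivery and assembly of the core. Without WT 2 only 5 of these factors were called, 3 higher and 2 lower, and without TAZG197V 2 only 3, 2 higher and 1 lower, in fits that called 29% and 24.1% of all genes. Cycs, the somatic cytochrome c that feeds electrons to complex IV, was lower at -0.40 ± 0.08 (edgeR adjusted p = 0.0069), and Hccs, which attaches its haem, was not called. Of the 3 genes in that list 2 were tested.

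Other muscle proteins also have a muscle form and a form of other tissues, and 12 such pairs were compared in the same fit. In 10 of the 12 pairs the muscle form had the lower log2 fold change, and in 7 the muscle form was called lower while its partner was called higher. Taken singly, 9 of the 12 muscle forms were called lower, against 15.1% of all genes, and 7 of the 12 partners were called higher, against 18.5%. Eno3 and Eno1, the muscle and general enolases, stood at -1.07 and 0.53. Slc25a4 and Slc25a5, 2 forms of the ADP/ATP carrier, stood at -0.37 and 1.06. Pfkm and Pfkp, 2 phosphofructokinases, stood at -0.49 and 1.08. The median difference between partners was -1.20 on the log2 scale, against -1.25 for Cox7a1 with Cox7a2, -1.74 for Cox8b with Cox8a and -0.71 for Cox6a2 with Cox6a1 in the same fit. Pairs that went otherwise were Ckm with Ckb, where Ckb was called lower at -0.89, and Cpt1b with Cpt1a, where neither was called. For Pygm with Pygb, at -0.02 and 0.04, neither was called either. The 12 pairs were chosen with earlier results of these data known, so these counts describe them and are no support. Of the 8 ventricular cardiomyocyte markers 4 were called, all lower, and their part here was not tested. The pairs named above were picked after their values were seen.

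**Figure D5:**
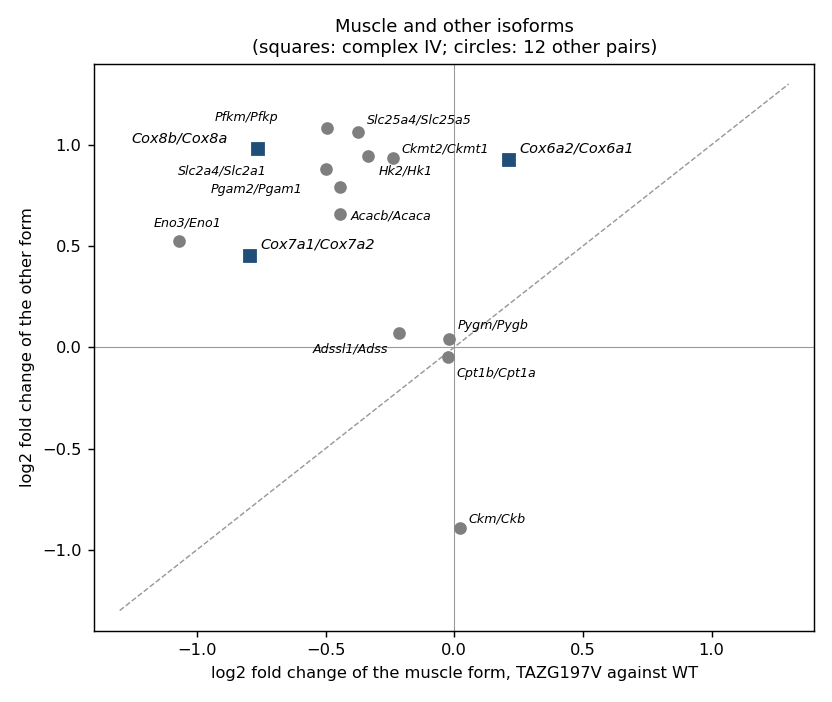
Log2 fold change of the muscle form (x axis) against that of its partner (y axis), TAZG197V against WT, for the 3 complex IV pairs (squares) and 12 other pairs (circles); on the dashed line both change alike. Cox8b with Cox8a and Cox7a1 with Cox7a2 lie at the upper left with most other pairs, while Cox6a2 with Cox6a1 lies at the upper right.

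Genes whose log2 CPM followed the isoforms most closely were found by Pearson correlation over the 8 libraries, which share the split by genotype and the scaling of each library. For Cox7a1 these were Rpusd4 (r = 0.997), Cox8b (r = 0.992) and D10Jhu81e (r = 0.986) of 12355 genes. For Cox8b they were Cox7a1, Acad8, a mitochondrial acyl-CoA dehydrogenase (r = 0.984), and Isoc2a (r = 0.984). The 2 muscle forms that fell were thus among each other's 3 nearest genes. Such values are not rare here, since 477 genes had r above 0.9 to Cox7a1. For Cox7a2 the nearest were Ppil2 (r = 0.996), Nme6 (r = 0.995) and Cdc37 (r = 0.993), and 1008 genes had r above 0.9. Cox6a2 correlated with Cox7a2 at 0.933 and with Cox7a1 at -0.676.

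Markers of the cells in a heart piece are given beside these genes, with their calls to be read against the 33.5% of all genes that were called. In such bulk samples fewer cells of a type and less RNA per cell cannot be told apart. The 8 ventricular cardiomyocyte markers summed to 59463 to 68273 CPM in WT and 50666 to 54807 in TAZG197V, and 4 were called, all lower. Set against that sum, Cox7a1 amounted to 0.949% to 1.18% in WT and 0.667% to 0.833% in TAZG197V, and Cox8b to 0.572% to 0.693% and 0.385% to 0.512%, so neither overlapped between genotypes. On that scale the log2 differences were -0.52 for Cox7a1, -0.49 for Cox8b, 1.23 for Cox8a, 1.19 for Cox6a1, 0.71 for Cox7a2 and 0.46 for Cox6a2. They were 0.54 for Cox7a2l and 0.42 for Cox4i1, against 0.28 and 0.17 in the fit, and on this scale Cox4i1 did not overlap between genotypes. Cox4i2 and Ndufa4 changed sign, to 0.18 and 0.13 from -0.04 and -0.12 in the fit, and both overlapped between genotypes.

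Most cell types of the heart other than cardiomyocytes use the ubiquitous forms, so their markers stand beside the rise of Cox7a2, Cox8a and Cox6a1. Of 5 fibroblast markers 3 were called, all lower, with sums of 879 to 1463 CPM in WT and 605 to 836 in TAZG197V. Of 5 endothelial markers 2 were called, both lower, with sums of 652 to 924 and 525 to 681 CPM. Of 4 macrophage markers 0 were called (edgeR, with 1 at an unadjusted p under 0.05, and 0 called by DESeq2), with sums of 114 to 131 and 107 to 164 CPM. Smooth muscle markers gave 1 called higher, Acta2, and 2 lower of 3, with sums of 122 to 244 and 218 to 411 CPM. Between genotypes the fibroblast sums did not overlap, whereas the endothelial, smooth muscle and macrophage sums did. Skeletal muscle, which also uses the muscle forms, was represented by sums of only 2.99 to 4.60 CPM in WT and 1.50 to 2.36 in TAZG197V, with Myh1, Myh2 and Myh4 under 1 CPM throughout.

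Brown adipocytes express Cox8b and Cox7a1. Ucp1, their defining gene, was under 1 CPM in every library. The 6 markers of that list summed to 23.4 to 32.4 CPM in WT and 31.4 to 38.3 in TAZG197V, nearly all of it Cidea, which was called higher. Adipocyte markers summed to 18.2 CPM in WT 2 and at most 3.30 elsewhere, and of these 5 only 1 was tested, which was called lower. Red cell markers, all 6 called lower, summed to 55072 CPM in WT 4 and to 227 to 1065 elsewhere. Of 4 atrial markers 2 were tested and both were called lower, and of 5 brain markers 4 were tested, with 1 called higher and 1 lower. The part of these cell types in the levels of the isoform genes was not tested beyond the values given.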

How the data were processed

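RNA from heart pieces of 4 WT and 4 TAZG197V mice was sequenced. Per the labels, the authors' deposited values are whole-number read counts over the exons of each gene, not normalised, made with bcl2fastq 2.20.0, FastQC 0.11.9, STAR 2.7.3a and featureCounts of Subread 2.0.0 on build mm10. Strand setting, annotation release and treatment of multimapping reads are not given in the sources used here, so overlapping genes and close copies are uncertain. The 92 spike-in rows summed to 0 and were left out. Totals were 23055689 to 36301031 counts, so spread between mice, not counting error, limits abundant genes. Nothing in the labels says that libraries came from separate litters, and p-values measure the spread between these samples.

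Counts were fitted in R 4.3.3 with edgeR 4.0.16 (filterByExpr, TMM, quasi-likelihood F-test, two-sided, Benjamini-Hochberg adjustment over 15084 genes) with 2 surrogate variables from svaseq in sva 3.50.0 (random seed 1). DESeq2 1.42.0, other covariates, scalings and filters, and omission of libraries were alternatives. The SE of a log2 fold change is its size over the square root of F. CPM are TMM-scaled. The fit was tested on simulated data. Exon lengths and positions came from GENCODE M21 and promoters from RefSeq. Proteins were translated from GENCODE coding sequences and aligned globally with Biopython 1.88 (BLOSUM62, gap opening 10, extension 0.5), and identity is over aligned residues. Replicates differed beyond sampling noise (chi-square per gene of at least 10.2), so all were kept. WT 4 stood apart from the other WT libraries at 123 to 156, against 16.6 to 31.1 among those and at most 34.8 within TAZG197V.

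The 10 genes, the lists and the pairs were chosen with earlier results of these data known. Named beside them are Taz, up to 4 called genes per complex IV list with the largest change, the mitochondrially encoded subunits, the 3 genes most correlated with Cox7a1, Cox8b and Cox7a2 (mean scaled count at least 50, prior count of 2 for log2 CPM), and markers where they stand beside a result. Cox6b2 and genes given as ranges, and the named isoform pairs, fall outside this rule.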

Additional observations from a re-analysis of the deposited data

Results flagged for a closer look

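Among 30 sets of 4 libraries (10 genes and 5 ratios in each genotype), 1 held a library that stood far from the other 3. It was the log2 ratio of Cox4i2 to Cox4i1 in WT, where WT 4 was at -7.76 and the other 3 at -7.27 to -7.22, so that its gap made up 0.9 of the whole range, past the 95% limit that Dixon's criterion sets for 4 values. WT 4 is the library with 5.00% haemoglobin counts, whose part in this value was not tested. Chance alone marks about 1 in 20 such sets, which is 1.5 of 30.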

How the results depend on the processing

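Since the isoform genes were chosen from this contrast, the stability of their values is a description and no support. Over 17 alternative fits Cox7a1, Cox8b, Cox8a, Cox6a1, Cox7a2 and Cox7a2l kept their direction, Cox6a2 was called in 4, and Ndufa4 ran from -0.192 without WT 4 to -0.087. The fitted folds of Cox7a2 (1.37) and Cox7a2l (1.21) lie under 1.5. Cox4i2 ranged from -0.216 without WT 4 to 0.028 without WT 1, and was also above 0 without WT 3 (0.005) and without TAZG197V 1 (0.027). Relative to the summed ventricular markers, a scaling chosen after seeing the data, Cox4i2 turned to 0.18 and Ndufa4 to 0.13. The log2 differences of the isoform ratios kept their direction under every alternative run, of which the replicate block could not change them. Leaving out 1 library gave -1.27 to -1.19 for Cox7a1 over Cox7a2, -1.81 to -1.64 for Cox8b over Cox8a and -0.79 to -0.64 for Cox6a2 over Cox6a1. The last was -0.93 in lane 7 and -0.52 in lane 8, and the cause was not tested.

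Over all genes, 5060 were called, 3675 to 4816 when 1 library was left out and 1843 at a fold change of at least 1.5. At that fold change there were calls for 0 further nuclear subunits, 1 assembly factor and 0 cytochrome c genes. The further nuclear subunits had 2 calls, the second being Ndufa4l2, with no low-count filter and without both number 4 libraries, and 1 to 2 when 1 library was left out (2 without WT 4 or TAZG197V 4). Assembly factors had 5 calls with DESeq2 and 3 to 8 when 1 library was left out (5 without WT 2, 3 without TAZG197V 2). Same-numbered libraries did not deviate together in each pair (r = 0.28, 0.04, 0.28 and 0.42), so the number is not known to pair them. With the replicate number as a block 4272 genes and 5 assembly factors were called. The ratio differences were again -1.22, -1.71 and -0.72, which was fixed in advance, since a balanced block leaves a difference of means unchanged. Among the isoform genes Cox4i2 had the fewest counts, 103 to 304 per library.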
